A study of Arabidopsis thaliana with 6 samples.

Results

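The 7 nucleolar ribosome biogenesis genes NUC1 (AT1G48920), NUC2 (AT3G18610), FIB1 (AT5G52470), FIB2 (AT4G25630), CBF5 (AT3G57150), NOP56 (AT1G56110) and RID2 (AT5G57280) were taken by AGI code from a table of 31276 Arabidopsis genes. All 7 were listed and all 7 were expressed highly enough to be tested, among 18608 tested genes. The libraries came from hypocotyls, the embryonic stems, of 1-week-old wild-type Col-0 seedlings. For the day 7 group the cut hypocotyls had lain for 7 days on callus-inducing medium, which makes cut plant tissue form a mass of dividing cells, and for the day 0 group they were collected directly at excision. Each group had 3 biological replicates, so every test rests on 3 libraries a group. The number of plants behind a replicate is not given in the sources used here. All 6 libraries carry a callus tissue label, whereas by the design text the day 0 material was collected before any time on the medium.

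Ribosomes are assembled in the nucleolus, where RNA polymerase I transcribes a long precursor of the ribosomal RNAs (rRNA). Small nucleolar ribonucleoproteins (snoRNPs) guide chemical modification of that precursor, box C/D particles directing ribose methylation and box H/ACA particles directing the conversion of uridine to pseudouridine, while nucleases, helicases and assembly factors cut and fold it into the 2 ribosomal subunits. Growing and dividing plant cells, such as those of meristems, are known for large nucleoli and high expression of these factors.

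Values were TPM, a transcript level per length scaled to the same total in every library, so levels of different genes can be set side by side. Sequencing depth cannot be read from TPM; it is unknown here, and values carry no counting error. The 4 listed nuclear rRNA genes took 38.9%, 8.44% and 25.3% of the 1000000 TPM in day 7 replicates 1, 2 and 3, against 18.0%, 4.19% and 12.1% in day 0 replicates 1, 2 and 3. Nuclear protein-coding genes took 37.6%, 81.0% and 52.0% at day 7, against 59.5%, 86.4% and 71.2% at day 0, in the same order. The genes used here summed to 793808 to 922411 TPM a library. Every TPM below carries that difference in scale, which is why ratios between genes of the same library are given beside the levels. The groups were also compared after division by size factors that bring the libraries to a common median ratio, relative to nuclear protein-coding TPM alone (the protein-coding scale), and with quantile normalization, which gives all libraries 1 distribution. Of the 5 root apex markers 4 rose at day 7, and the list summed to 247 to 488 TPM there, against 22.6 to 29.4 TPM at day 0. All 4 green tissue markers fell, summing to 3.91 to 9.18 TPM at day 7 and 60.7 to 193 TPM at day 0, and LHCB2.1 was listed at 0 in 1 day 7 library. Both epidermis markers fell as well, whereas of the 5 dividing cell markers 1 rose as deposited, 3 after rescaling by size factors or quantiles and 4 relative to protein-coding genes, with sums of 131 to 290 TPM at day 7 and 108 to 144 TPM at day 0. These are bulk tissues, in which fewer cells of a type and less RNA per cell cannot be told apart, and the part of cell composition in the results below was not tested.

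NUC2, FIB2 and RID2 fell at day 7, and as deposited NUC1, FIB1, NOP56 and CBF5 did not pass. Their group means ran from 0.305 times (NUC2) to 1.05 times (CBF5) the day 0 mean. The count of 3 falls among 7 genes stands beside 16.2% of all tested genes that fell, and 0 of the 7 rose, where 13.4% of all tested genes did (limma at the log2(TPM + 1) scale, calls made at an adjusted p below 0.05 by Benjamini-Hochberg). The same 3 genes were lower in every day 7 library than in any day 0 library, as were 19.5% of all tested genes. The median log2 change (day 7 minus day 0) of the 7 genes was -0.79, against 0.05 over all tested genes. The median depended on the scale: it was -0.86 after size-factor scaling, -0.39 on the protein-coding scale and -0.07 with quantile normalization, against -0.01, 0.42 and 0.09 over all tested genes. The 7 genes together held 0.218%, 0.203% and 0.237% of the nuclear protein-coding TPM at day 7, against 0.277%, 0.252% and 0.260% at day 0, without overlap. How often tested genes did not overlap on that scale was not counted. The lower sum was not a fall of all 7 genes. On the protein-coding scale FIB2 averaged 272 at day 7 and 551 at day 0, and NUC1 625 and 820. NUC2 (11.6 and 30.8) and RID2 (47.6 and 77.5) were lower at small levels. FIB1 (479 and 496) and NOP56 (401 and 397) differed little, and CBF5 had a higher mean at day 7 (356 and 258.5).

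**Figure D1:**
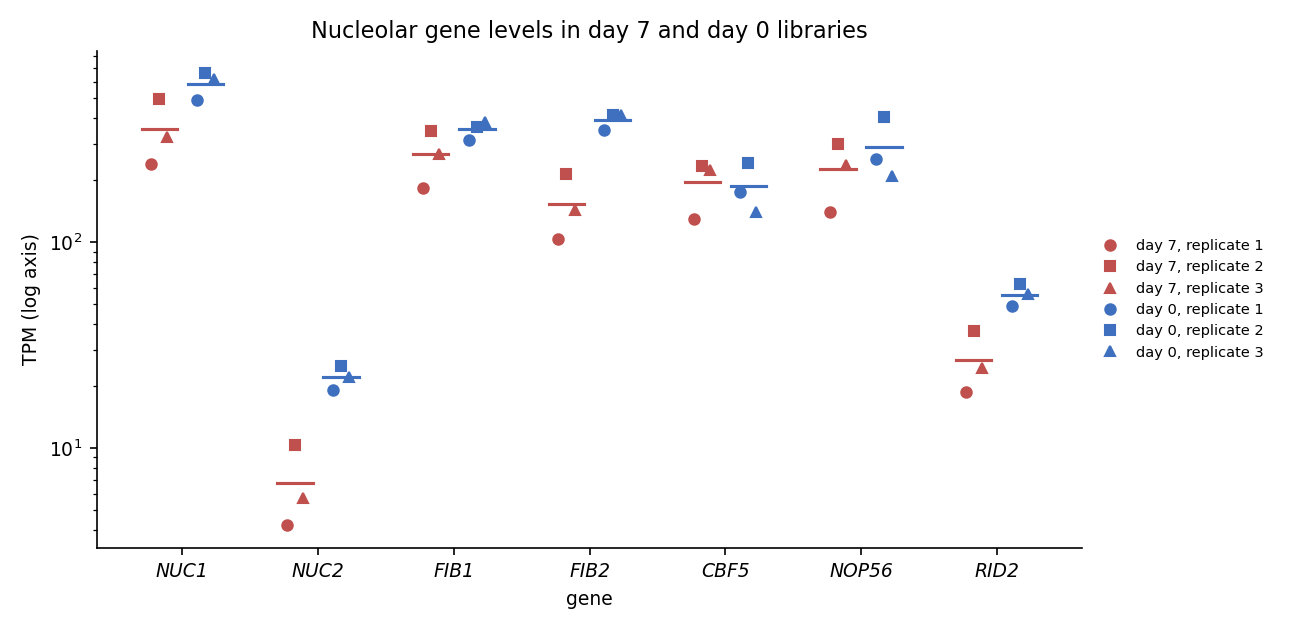
TPM (log axis) of the 7 genes in each library, day 7 in red and day 0 in blue; circles, squares and triangles are replicates 1, 2 and 3 and bars are group means (n = 3). NUC2, FIB2 and RID2 lie lower in all day 7 libraries, while the other 4 genes overlap between the days.

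The nucleolins are abundant RNA-binding proteins of the nucleolus that act on rRNA gene chromatin and on the first steps of precursor processing. NUC1 is the predominant form in Arabidopsis. It stood at 240, 496 and 326 TPM in day 7 replicates 1, 2 and 3, against 490, 662 and 620 TPM in day 0 replicates 1, 2 and 3. The groups overlapped, because day 7 replicate 2 lay just above day 0 replicate 1. The means were 354 ± 130 TPM at day 7 and 591 ± 89.9 TPM at day 0 (n = 3 each, SD), with a log2 change of -0.79 ± 0.43 SE (adjusted p = 0.155 in limma). This missed the threshold as deposited but passed after size-factor scaling (log2 change -0.86 ± 0.12 SE, adjusted p = 3.69e-04 by limma). It was smaller on the protein-coding scale, at -0.39 ± 0.10 SE (adjusted p = 9.18e-03 in limma), and with quantile normalization it was -0.07 ± 0.08 SE without passing (adjusted p = 0.493 in limma). By rank among all listed genes NUC1 was at place 216 to 224 in the day 7 libraries and at place 191 to 222 in the day 0 libraries.

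NUC2 encodes the minor nucleolin, known from Arabidopsis as the form that is induced when NUC1 is lost. It was listed at 4.21, 10.3 and 5.70 TPM in day 7 replicates 1, 2 and 3, against 19.2, 25.1 and 22.2 TPM in day 0 replicates 1, 2 and 3. The highest day 7 library was thus well under the lowest day 0 library. NUC2 had the largest fall of the 7 genes, to 6.75 ± 3.20 TPM at day 7, against 22.2 ± 2.94 TPM at day 0 (n = 3 each, SD), which is 3.28-fold lower (log2 change -1.65 ± 0.45 SE, adjusted p = 1.25e-03 by limma). The call held under all 18 alternative settings, with limma adjusted p from 2.02e-06 to 0.0434. NUC2 stood at places 12206 to 12811 by level in the day 7 libraries and at places 5135 to 6069 in the day 0 libraries.

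Fibrillarins are the methyltransferases of box C/D snoRNPs, and Arabidopsis carries FIB1 and FIB2 as closely related copies. The sources used here do not say how reads matching both copies were assigned, which leaves the split between them uncertain to that extent. FIB1 stood at 184, 348 and 269 TPM in the day 7 libraries, against 313, 363 and 386 TPM in the day 0 libraries, in replicate order. Day 7 replicate 2 reached into the day 0 range. The log2 change was -0.45 ± 0.43 SE (adjusted p = 0.470 in limma), and after size-factor scaling FIB1 passed as lower at -0.52 ± 0.15 SE (adjusted p = 0.0176 in limma). On the scale of nuclear protein-coding TPM alone it was at -0.05 ± 0.13 and with quantile normalization at 0.18 ± 0.11, both without passing.

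FIB2 stood at 103, 215 and 144 TPM in the day 7 libraries, against 352, 414 and 415 TPM in the day 0 libraries, in replicate order. There was a clear gap between the groups. FIB2 fell to 154 ± 56.8 TPM at day 7, against 393 ± 36.0 TPM at day 0 (n = 3 each, SD), 2.55-fold lower (log2 change -1.41 ± 0.43 SE, adjusted p = 4.91e-03 by limma). The call was lost without day 0 replicate 3 (limma adjusted p = 0.0894) and without day 7 replicate 3 (limma adjusted p = 0.0796). It was kept under the other 16 settings, whose log2 changes ran from -1.68 to -0.85. FIB2 stood at places 581 to 589 by level in the day 7 libraries and 281 to 361 in the day 0 libraries, while FIB1 stood at 281 to 328 at day 7 and 313 to 400 at day 0. The 2 fibrillarin genes summed to 421 ± 138 TPM at day 7 and 747 ± 72.7 TPM at day 0 (n = 3 each, SD).

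Within both gene pairs the ratio of the copies did not overlap between the days, a comparison that stays the same when a library is multiplied by a constant. Non-overlap is common here, since 70.1% of all pairs of tested genes above 0 in every library showed it. The ratio of NUC2 to NUC1 was 0.0176, 0.0209 and 0.0175 in day 7 replicates 1, 2 and 3, against 0.0392, 0.0379 and 0.0357 in day 0 replicates 1, 2 and 3. It was 2.02-fold lower at day 7, a log2 change of -1.02. NUC2 made up 1.83% ± 0.185 of the nucleolin TPM at day 7 and 3.63% ± 0.164 at day 0 (n = 3 each, SD). The ratio of FIB2 to FIB1 was 0.560, 0.619 and 0.533 at day 7, against 1.12, 1.14 and 1.07 at day 0, a log2 change of -0.96. FIB2 was the more abundant fibrillarin in every day 0 library and FIB1 in every day 7 library. The fibrillarin TPM was 36.3% ± 1.77 from FIB2 at day 7 and 52.7% ± 0.765 at day 0 (n = 3 each, SD). For each of the 2 ratios the exact two-sided permutation test gave p = 0.1 before and after Benjamini-Hochberg adjustment; no smaller value is possible with 3 libraries on each side, so the design cannot reach 0.05 here. Multiplying a library by a constant leaves these ratios as they are, whereas quantile normalization does not. Without any single library the log2 changes ran from -1.10 to -0.97 for the nucleolins and from -1.02 to -0.92 for the fibrillarins.

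**Figure D2:**
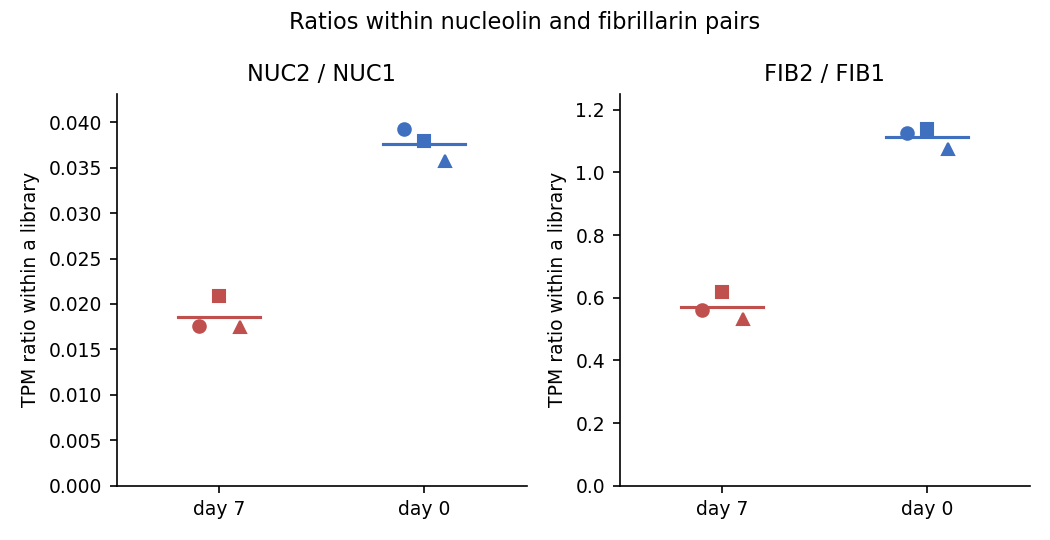
TPM ratio within each library of NUC2 over NUC1 (left) and FIB2 over FIB1 (right), day 7 in red and day 0 in blue; circles, squares and triangles are replicates 1, 2 and 3 and bars are the geometric means (n = 3). All day 7 ratios lie under all day 0 ratios, as non-overlapping as 70.1% of all gene pairs, and FIB2 over FIB1 is below 1 at day 7 and above 1 at day 0.

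As deposited, neither of the other 2 snoRNP genes passed. NOP56 encodes a core protein that holds box C/D particles together. It stood at 141, 301 and 238 TPM in day 7 replicates 1, 2 and 3, against 253, 407 and 209 TPM in day 0 replicates 1, 2 and 3, and the groups overlapped. Its log2 change was -0.36 ± 0.43 SE (adjusted p = 0.568 in limma), which turned to 0.04 ± 0.18 on the protein-coding scale, also without passing.

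CBF5, the pseudouridine synthase of box H/ACA particles and also named NAP57, was the only one of the 7 with a higher mean at day 7 on the deposited scale. It stood at 130, 235 and 225 TPM in the day 7 libraries, against 176, 243 and 141 TPM in the day 0 libraries, in replicate order. The groups overlapped fully, and the log2 change was 0.06 ± 0.43 SE (adjusted p = 0.936 in limma). After size-factor scaling it was -0.01 ± 0.21 and with quantile normalization 0.58 ± 0.18, where CBF5 passed as higher (limma adjusted p = 0.0237). On the protein-coding scale it was 0.46 ± 0.19 without passing (limma adjusted p = 0.0575). Day 0 replicate 3 held the lowest CBF5 and NOP56 levels of its group and the highest FIB1 level, as deposited and on the protein-coding scale. The same library had the highest sum of green tissue markers, 193 TPM, against 60.7 TPM in the lowest day 0 library, and their part in the result was not tested. The log2 change of CBF5 was -0.12 without that library.

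RID2 encodes a methyltransferase-like nucleolar protein related to yeast Bud23, which modifies the rRNA of the small subunit. Its temperature-sensitive Arabidopsis mutant is known for impaired precursor processing and for defects in root initiation and callus formation from hypocotyl explants, the kind of tissue profiled here. RID2 stood at 18.8, 37.0 and 24.5 TPM in day 7 replicates 1, 2 and 3, against 48.8, 62.5 and 55.8 TPM in day 0 replicates 1, 2 and 3. Every day 7 library was lower than every day 0 library. RID2 fell to 26.8 ± 9.32 TPM at day 7, against 55.7 ± 6.85 TPM at day 0 (n = 3 each, SD), 2.08-fold lower (log2 change -1.07 ± 0.44 SE, adjusted p = 0.0468 by limma). On the deposited scale this call was close to the threshold. It was lost when any library other than day 7 replicate 2 was left out (limma, adjusted p = 0.105 and up to adjusted p = 0.248) and with a TPM minimum of 5 (limma adjusted p = 0.0521), and it was kept after size-factor scaling (log2 change -1.14 ± 0.11 SE, adjusted p = 5.61e-05 by limma).

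FIB2 was the fifth gene by level at day 7 and the second at day 0. By mean TPM at day 7 the order was NUC1 (354), FIB1 (267), NOP56 (227), CBF5 (197), FIB2 (154), RID2 (26.8) and NUC2 (6.75), and each gene was above the next in all 3 libraries. At day 0 it was NUC1 (591), FIB2 (393), FIB1 (354), NOP56 (290.0), CBF5 (187), RID2 (55.7) and NUC2 (22.2). There, too, each gene was above the next in all 3 libraries, except that FIB1 was above NOP56 in 2 of 3. The TPM ranges of neighbours from NUC1 down to FIB2 overlapped across the day 7 libraries, as did those from FIB2 down to CBF5 at day 0. RID2 and NUC2 were separate from the rest and from each other on both days.

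The ratios between all 7 genes were examined after the data had been seen. Of the 21 pairs, 19 had ratios that did not overlap between the days, or 90.5%, beside the 70.1% over all gene pairs. The exact two-sided permutation p of these 19 was 0.1, the smallest possible, and 0.111 after Benjamini-Hochberg adjustment over the 21 pairs. The widest change was that of NUC2 relative to CBF5, 0.0323, 0.0441 and 0.0253 in the day 7 libraries against 0.109, 0.103 and 0.157 in the day 0 libraries, a log2 change of -1.87. CBF5 was higher relative to NOP56, with ratios of 0.924, 0.778 and 0.947 at day 7 and 0.695, 0.598 and 0.673 at day 0. The 2 overlapping pairs were NUC1 to NOP56 and FIB1 to NOP56, with log2 changes of -0.43 and -0.08.

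**Figure D3:**
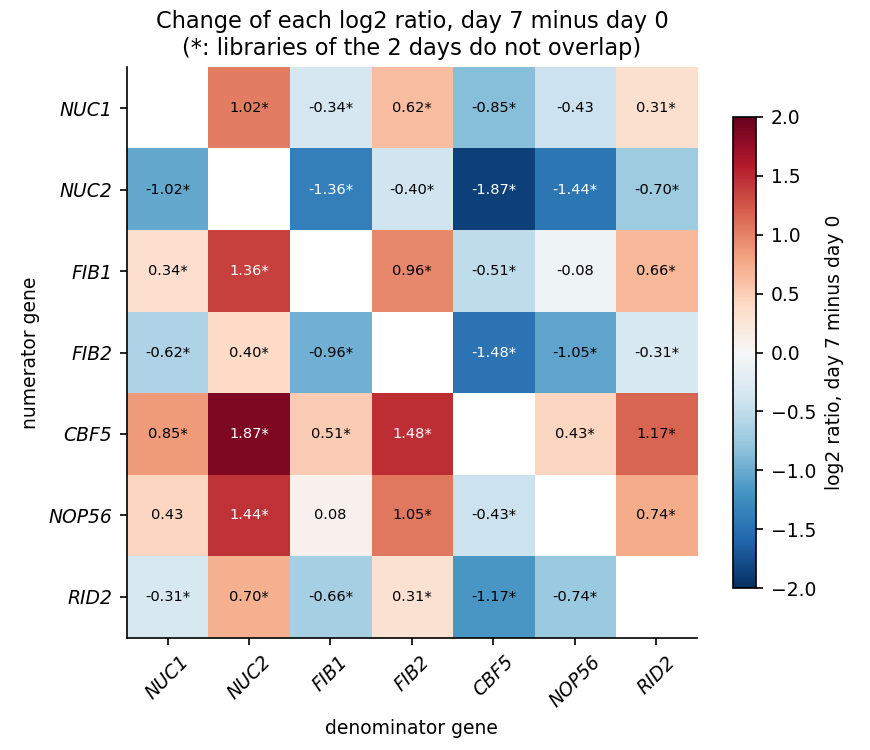
Change of the log2 ratio between each pair of the 7 genes, day 7 minus day 0; rows are numerators, columns denominators, red is higher at day 7 and blue lower, and an asterisk marks pairs whose 3 day 7 and 3 day 0 libraries do not overlap. The NUC2 row is negative throughout, down to -1.87 against CBF5, and the CBF5 row is positive throughout.

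How many of the 7 genes fell depended on the scale. On the deposited scale the errors are wide, since the libraries differ in the share left to protein-coding genes. The fit there drew every variance to a common trend. An SE or limma p on that scale thus reflects the spread of genes of that level rather than of the gene itself. After size-factor scaling 5 fell (NUC1, NUC2, FIB1, FIB2 and RID2), where 33.9% of all tested genes did. On the protein-coding scale 4 fell (the same without FIB1), where 21.0% did. The same 4 fell when the TPM were rescaled without the 4 nuclear rRNA genes, where 20.8% of all tested genes fell and 48.7% rose. With quantile normalization NUC2, FIB2 and RID2 fell, where 28.4% did, and CBF5 rose, where 34.8% did. The rescaling over protein-coding genes moved the median of all tested genes up to 0.42 on the log2 scale. Relative to that median NUC1 was at -0.81, NUC2 at -1.75, FIB1 at -0.47, FIB2 at -1.43, CBF5 at 0.04, NOP56 at -0.39 and RID2 at -1.11. Set to a protein-coding total of 1000000, NUC1 averaged 625 ± 12.4 at day 7 and 820 ± 52.9 at day 0. On the same scale FIB2 averaged 272 ± 5.27 at day 7 and 551 ± 62.6 at day 0 (n = 3 each, SD).

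**Figure D4:**
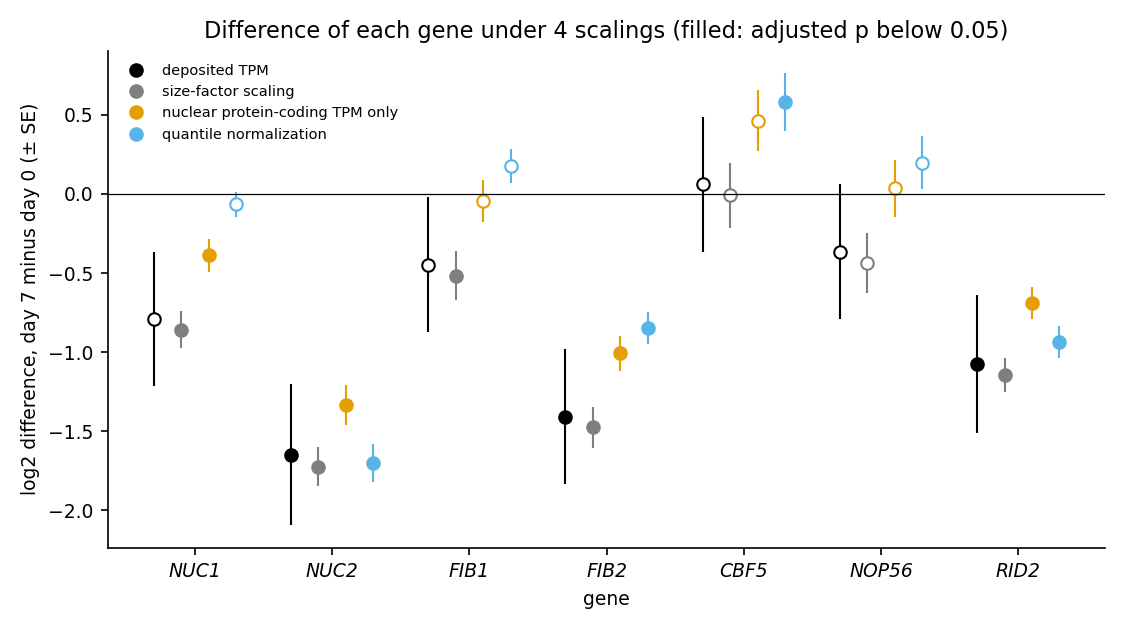
Log2 change (day 7 minus day 0, ± SE) of each gene as deposited (black), after size-factor scaling (grey), with nuclear protein-coding TPM only (orange) and after quantile normalization (blue); filled points had a limma adjusted p below 0.05. NUC2, FIB2 and RID2 are filled on all 4 scales, whereas FIB1, CBF5 and NOP56 each lie on either side of 0 depending on the scale.

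The 44 other ribosome biogenesis genes, listed by role, were lower on the deposited scale in 34 of 43 tested, though few passed. Of these 43 genes 7 fell, 0 rose and 36 did not pass, beside 16.2% of all tested genes that fell. Their median log2 change was -0.48, against 0.05 over all tested genes. Without overlap, 13 were lower (30.2%) and 1 was higher at day 7. Of all tested genes 19.5% were lower and 19.3% higher in that way. After size-factor scaling 27 fell and 4 rose, where 33.9% of all tested genes fell and 31.0% rose. On the protein-coding scale 11 fell and 12 rose, where 21.0% fell and 49.6% rose, so the counts of falls and rises depended on the scale. The list median stayed under that of all tested genes. It was -0.55 against -0.01 after size-factor scaling, -0.08 against 0.42 on the protein-coding scale and -0.25 against 0.09 with quantile normalization. On the deposited scale the 7 falls went down to 0 without day 0 replicate 3 or without day 7 replicate 3. They went to 2 without any 1 of day 0 replicates 1 and 2 and day 7 replicate 1, and up to 18 without day 7 replicate 2. Falls over all tested genes moved as well. They went from 3015 to 1349, 2074, 1722, 1398, 2528 and 4888, with the libraries left out in the order just given.

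Among the 10 other snoRNP genes 4 of 9 tested fell and 0 rose, beside 16.2% and 13.4% of all tested genes, and the fibrillarin relative AT5G52490 was listed at 0 in all 6 libraries. AT4G12600 and AT5G20160, annotated as ribosomal protein L7Ae family, to which a box C/D core protein of yeast belongs, fell to 200 ± 78.4 TPM and 127 ± 61.1 TPM at day 7, against 540 ± 46.3 TPM and 334 ± 26.8 TPM at day 0 (n = 3 each, SD). Their log2 changes were -1.49 ± 0.43 each (SE, limma adjusted p = 2.47e-03 and 2.61e-03). AT5G27120, annotated as a NOP56-like ribonucleoprotein, and AT5G08180, another gene annotated to the L7Ae family, both named after their values were seen, also fell, with log2 changes of -1.17 and -1.08. No tested gene of this list had a higher mean at day 7. On the protein-coding scale 6 fell and 0 rose, beside 21.0% and 49.6% of all tested genes.

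Among the 13 small subunit factors 2 fell and 0 rose as deposited, a share of falls near the 16.2% of all tested genes. SWA1 (AT2G47990), a processing factor known from female gametophyte growth, fell to 28.9 ± 9.20 TPM at day 7, against 60.9 ± 8.11 TPM at day 0, and ENP1 (AT1G31660), annotated as a ribosome biogenesis co-factor, fell to 48.2 ± 19.7 TPM at day 7, against 99.8 ± 23.6 TPM at day 0 (n = 3 each, SD). Their limma adjusted p values were 0.0428 and 0.0421. RRP5 (AT3G11964), a nucleolar processing factor, had the largest difference in the other direction, 0.19 on the log2 scale, without passing (limma adjusted p = 0.795). After size-factor scaling 9 of the 13 fell and 0 rose, beside 33.9% and 31.0% of all tested genes. With quantile normalization 9 fell and 1 rose, beside 28.4% and 34.8%. On the protein-coding scale 3 fell and 2 rose, beside 21.0% and 49.6%.

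Among the 18 large subunit factors 1 fell and 0 rose, beside the same 16.2% and 13.4%. AT1G52930, annotated with a Brix domain for rRNA processing, fell to 54.1 ± 23.0 TPM at day 7, against 121 ± 14.3 TPM at day 0 (SD, n = 3 each; log2 change -1.22, limma adjusted p = 0.0194), and AT3G15460, with the same annotation, had a log2 change of -1.01 without passing (limma adjusted p = 0.0661). The exonuclease gene XRN2 (AT5G42540) was at 50.1 ± 20.3 TPM at day 7 and 27.1 ± 9.81 TPM at day 0 without passing (log2 change 0.85, limma adjusted p = 0.134). After size-factor scaling 10 genes of this list fell, beside 33.9% of all tested genes, and 4 rose, beside 31.0%. The 4 that rose are named here after their values were seen and are XRN2, the exosome helicase gene MTR4 (AT1G59760), the cytosolic maturation factor REIL1 (AT4G31420) and the RNA helicase gene PRH75 (AT5G62190). PRH75 was at 234, 406 and 323 TPM in the day 7 libraries, against 145, 233 and 202 TPM in the day 0 libraries. It was the only gene of the 43 that was higher without overlap, where 19.3% of all tested genes were. Its log2 change was 0.72 as deposited (limma adjusted p = 0.206) and 0.65 after size-factor scaling (limma adjusted p = 2.35e-03). The polymerase I subunit genes NRPA1 (AT3G57660) and NRPA2 (AT1G29940) were at 0.16 and 0.15 on the log2 scale, and ANAC082 (AT5G09330), a transcription factor of the nucleolar stress response, at 0.20, all without passing.

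**Figure D5:**
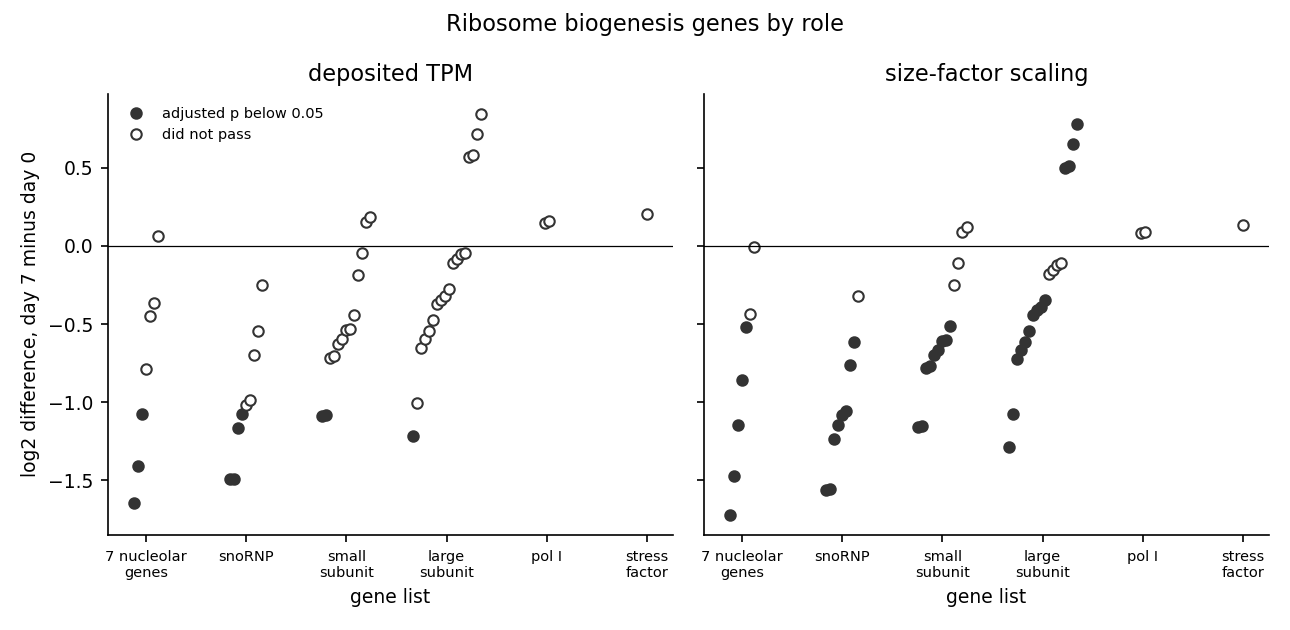
Log2 change (day 7 minus day 0) of the 7 nucleolar genes and 43 other tested ribosome biogenesis genes by list, as deposited (left) and after size-factor scaling (right); each point is a gene, filled where the limma adjusted p was below 0.05. The snoRNP list lies under 0 throughout, and 4 large subunit genes lie at 0.50 or more on the right.

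The genes whose levels followed the 7 genes most closely were sought over the 6 libraries after size-factor scaling, among 14161 genes with a mean of at least 5 TPM. The 5 highest Pearson correlations with the mean of the 7 genes were those of AT3G53990, an adenine nucleotide hydrolase-like gene (0.998), AT3G58660, of a ribosomal protein L1 family (0.998), AT3G25940, of a TFIIB-type zinc-binding protein (0.997), AT4G17520, of an mRNA-binding family (0.997), and the glutaredoxin family gene AT5G20500 (0.997). For NUC1 they were AT3G57490, of a ribosomal protein S5 family, AT3G13230, with an RNA-binding KH domain, and the MAK16-like gene AT1G23280. For NUC2 they were AT5G58420, of a ribosomal protein S4 family, the dirigent-like gene AT2G21100 and SDH3-2 (AT4G32210). AT2G21100 averaged 0.173 TPM at day 7 and 23.1 TPM at day 0, so it reached the mean of 5 TPM only through the day 0 libraries. These are descriptions over 6 libraries that fall into 2 groups of 3, so a difference between the days alone can give a high correlation. Of the 14161 genes 1997 had a correlation over 0.95 with the mean of the 7, 2269 with NUC1 and 2754 with NUC2. Among the 7 themselves NUC1, NUC2, FIB2 and RID2 had pairwise correlations of 0.988 to 0.999, whereas CBF5 had -0.003 to 0.067 with each of these 4.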

How the data were processed

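The authors deposited 1 table of TPM values for 31276 genes and 6 libraries, rounded to 2 decimals. Per the submitters' processing notes it involved STAR 2.7.10a, RSEM 1.3.1 and the build TAIR10, with no role, annotation or filter given. Per the labels' protocols, RNA was extracted with TransZol Up and 1 µg went into TruSeq RNA libraries. All 6 columns were used, grouped by the sample titles. Genes with at least 1 TPM in at least 3 libraries were tested with limma 3.58.1 (trend, R 4.3.3) on log2(TPM + 1), adjusted by Benjamini-Hochberg over 18608 genes at 0.05; changes given as log2 are on that scale and folds are ratios of mean TPM. Ratios were tested by exact permutation with scipy 1.17.1, and the fit was checked on simulated data.

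The 7 genes, the lists and the tests were chosen with earlier results of these data known. In each list of other genes the 2 tested genes with the largest changes and the largest in the opposite direction are named, with the genes most correlated with the 7, with NUC1 and with NUC2. Size factors were medians of ratios to a geometric-mean library. Alternatives changed pseudocount, filter, scale, variance trend, replicate block and single libraries. Names come from RefSeq TAIR10.1, which matched 31189 codes, and no coordinates or sequences from that build are used. There AT1G48930, at 0.18 to 3.49 TPM, overlaps NUC1, and 1 snoRNA gene lies within each of FIB1 and FIB2, not analysed here.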

Additional observations from a re-analysis of the deposited data

How the results depend on the processing

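Of the 7 genes, NUC2 kept its fall under all 18 alternatives, FIB2 under 16 and RID2 under 12. On the deposited scale 5512 genes changed, against 12072 with size factors, 11755 with quantile normalization, 13135 with nuclear protein-coding genes only and 12936 without the nuclear rRNA genes (the last, like the protein-coding scale with a block, was added after seeing the data), of which 45.3%, 47.8%, 55.1%, 70.3% and 70.0% rose. Leaving out 1 library gave 2703 to 6685 genes changed, 1 to 4 of the 7 genes fallen, 0 to 18 of the other ribosome biogenesis genes fallen and 0 to 1 risen. Of the 7 genes 5 fell with size factors, and 1, CBF5, rose with quantile normalization. Of the other genes 27 fell and 4 rose with size factors, 22 and 7 with quantile normalization, 11 and 12 with protein-coding genes only, and 11 and 10 without rRNA genes. Reversed signs, none past the threshold, were 0.18 for FIB1 and 0.20 for NOP56 with quantile normalization, 0.036 and 0.028 for NOP56 on the protein-coding and rRNA-free scales, and -0.0079 for CBF5 with size factors; CBF5 ran from -0.12 to 0.33 when single libraries were left out. The causes were not tested.

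Same-numbered replicates deviated together over genes with r = 0.097, 0.156 and 0.032, and not every library correlated best with its own number. A correlation over genes cannot see a shift of a whole library. The nuclear rRNA share had the same order of replicates on both days, at 38.9%, 8.44% and 25.3% at day 7 and 18.0%, 4.19% and 12.1% at day 0. Whether the numbers mark pairs was thus not settled, and the main fit does not take them as pairs. With the replicate block 10119 genes changed (4886 fell and 5233 rose), 4 of the 7 genes fell (NUC1 joined, limma adjusted p = 0.0305), and 20 other genes fell and 4 rose. The replicate block with size factors gave 11984 genes of 18608 tested (6316 fell and 5668 rose). There 5 of the 7 genes fell, 27 others fell and 4 rose, with CBF5 at -0.0079. The replicate block with protein-coding genes only gave 13296 genes (3994 fell and 9302 rose), and 11 others fell and 11 rose, with NOP56 at 0.036. Depth, unknown in TPM, limits the firmness of low levels such as those of NUC2.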

Other observations

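Ratios between related copies among the other ribosome biogenesis genes were examined after the data had been seen. How reads matching both copies were assigned is unknown here as well, so these splits are uncertain to that extent. The ratio of REIL1 to REIL2, cytosolic factors that mature the large subunit, was 0.934, 1.08 and 0.945 in day 7 replicates 1, 2 and 3, against 0.412, 0.455 and 0.358 in day 0 replicates 1, 2 and 3. REIL2 had the higher TPM in all day 0 libraries. The ratio of AT5G27120 to AT3G05060, both annotated as NOP56-like ribonucleoproteins, was 0.802, 0.824 and 0.695 at day 7 and 1.48, 1.39 and 1.53 at day 0. In 6 of 7 such pairs the ratios did not overlap between the days, where 70.1% of all pairs of tested genes above 0 in every library did not, so the count is close to that background. The exact two-sided permutation p of these 6 was 0.1, the smallest possible, and 0.117 after Benjamini-Hochberg adjustment over the 7 pairs. In the remaining pair, AT4G12600 to AT5G20160, the ratios were 1.75, 1.47 and 1.65 at day 7 and 1.62, 1.58 and 1.65 at day 0.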
